A study of Mus musculus with 6 samples.

Results

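The heat shock response genes examined here are 10 genes, picked by symbol from the 15667 genes of the deposited table: Hspa1a, Hspa1b, Hspa8, Hsph1, Dnajb1, Bag3, Hsp90aa1, Hspb1, Hspd1 and Hspe1. All 10 were present and all 10 passed the filter on low values. RNA-seq was performed on bitten ear skin of 3 wild-type (WT, Adipo+/+) and 3 adiponectin knock out (KO, Adipo-/-) mice, female littermates of 7 to 8 weeks, to compare the skin transcriptome with and without this fat cell hormone while ticks fed. KO mice carried the tm1Chan null allele of Adipoq on both chromosomes and in every tissue, on a mixed strain background, so that sequence linked to Adipoq can also differ between the groups. Mice of both groups had been bitten by 10 Ixodes scapularis nymphs for 48 h, and 1 punch of 3.5 mm from the bite site gave each library. Unbitten skin was not analysed here, so no value below says what a tick bite itself does to these genes.

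Heat, oxidants and other insults unfold proteins, and cells answer by raising chaperones, which hold, refold or hand over such proteins. The transcription factor HSF1 is kept inactive by chaperones in resting cells. Once freed it forms trimers and binds heat shock elements, arrays of the letters GAA in alternating orientation, in the promoters of chaperone genes. Some chaperones, such as Hspa8, are abundant without stress, whereas Hspa1a and Hspa1b are the classic induced genes, and in skin HSPB1 is known from differentiating keratinocytes.

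The promoter letters are shown first, because they separate the promoter windows found into those with and without letters of a heat shock element. RefSeq windows (GRCm38.p6) from 250 bases before to 50 after the start were found for 8 of the 10 members, those of Hsp90aa1 and Hspa8 not being among them. For each of the 8, the window used starts transcription at the base the deposited gene position gives. The windows were searched for GAANNTTC or TTCNNGAA, which are 2 units of the element and read the same on both strands, and for 3 units, in which a further unit in the opposite direction follows after 2 bases of any kind, so that each such match contains overlapping matches of 2 units. Of the 8 windows, 6 held 2 units, as did 15.1% of all 32851 windows of that length, and 2 held 3 units, as did 0.603% of all. Hspa1a, 1 of the 6, has the same 48 bases around its match as Hspa1b, for which alone they are printed below. The stretches with a match are printed 5′ to 3′ with the matching letters in capitals (Hspe1 chr1:55088039-55088096, plus strand; Hspb1 chr5:135887782-135887849, plus; Hsph1 chr5:149636342-149636389 and chr5:149636288-149636315, minus; Hspa1b chr17:34959315-34959362, minus; Bag3 chr7:128523605-128523632, plus).
Hspe1: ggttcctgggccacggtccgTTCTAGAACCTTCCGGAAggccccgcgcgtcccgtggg
Hspb1: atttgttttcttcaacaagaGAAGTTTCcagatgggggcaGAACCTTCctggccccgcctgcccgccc
Hsph1 before the start: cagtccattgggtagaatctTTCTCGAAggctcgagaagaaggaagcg
Hsph1 after the start: gtaaaatgctgcagaTTCTGGAAAGTTC
Hspa1b: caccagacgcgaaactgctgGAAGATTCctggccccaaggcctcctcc
Bag3: aagttctctggatgggaccaGAAGTTTC

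Hspe1 held the longest run, with 3 overlapping pairs that together make 4 units in a row. Hspe1 and Hspd1 are transcribed away from each other and their deposited positions share 96 bases, so this run lies before the start of Hspe1 and 167 to 184 bases after that of Hspd1. No match was found in the window used for Hspd1 or in that used for Dnajb1, which says only that these letters are not in those windows. Hspd1, Dnajb1 and Hsph1 each had 2 RefSeq windows, of which only that at the deposited start was used. A match is a description of letters and not of a bound site.

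The pair Hspa1a and Hspa1b is shown in full, because the 250 bases before their starts were 98.8% identical and their transcripts share reads. The 3 bases that differ are in capitals (Hspa1a chr17:34972157-34972406 and Hspa1b chr17:34959239-34959488, both minus strand).
Hspa1a: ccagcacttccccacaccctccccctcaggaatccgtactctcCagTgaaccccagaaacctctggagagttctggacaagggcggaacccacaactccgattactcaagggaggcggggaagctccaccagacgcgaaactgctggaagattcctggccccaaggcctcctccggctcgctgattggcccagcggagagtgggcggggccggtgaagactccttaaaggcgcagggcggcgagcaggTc
Hspa1b: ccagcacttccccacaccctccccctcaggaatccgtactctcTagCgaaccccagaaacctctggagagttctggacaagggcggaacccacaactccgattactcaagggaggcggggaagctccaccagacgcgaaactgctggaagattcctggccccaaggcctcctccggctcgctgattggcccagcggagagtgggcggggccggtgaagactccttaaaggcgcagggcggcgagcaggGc

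Values are CPM, the reads of a gene scaled to a common library total. The depth implied by the lowest values was 3403715 to 6591484 reads per library, at which the members stood for 76 to 4937 reads. Adipoq was at 30.5, 63.7 and 49.6 CPM in replicates 1, 2 and 3 of WT, and the KO libraries held 0, 2 and 0 reads of it (limma log2 fold change -6.17, SE 0.41, adjusted p = 0.00322), so that all 6 labels matched the targeted gene. Markers of keratinocytes (11 of 12 tested, Flg not, summed level 36369 to 56462 CPM) and fibroblasts (6 of 6, 4466 to 6984 CPM) were high in all 6 libraries. The libraries stood apart most in hair follicle markers (14 of 14 tested), whose summed level was 8.71, 9.56 and 23579 CPM in replicates 1, 2 and 3 of WT and 1857, 9374 and 957 CPM in the KO replicates. Of these 14 genes 12 were at 0 in at least 1 library (Krt25, Krt28, Krt71, Krt72, Krt73, Krt31, Krt33a, Krt35, Krt81, Krt83, Krt85 and Krt86). Neutrophil markers (7 of 10 tested, with Mmp8, Ngp and Ltf not tested) ran the other way within WT, at 605, 239 and 71.6 CPM, and were at 233, 134 and 132 CPM for KO. These sums are over the 8 neutrophil markers in the deposited table, 7 of which were tested. Of the marker genes that were tested, 0 differed between the genotypes at an adjusted p below 0.05.

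No difference between KO and WT skin was called for any of the 10 heat shock response genes. With limma on log2(CPM + 0.5), 0 of 10 had an adjusted p below 0.05, the adjusted p being 0.998 for each, where 0.0140% of all 14306 genes tested passed, which is 2 genes, with 0 passing when WT replicate 2 was left out and 16 when WT replicate 3 was. At an unadjusted p below 0.05 there were also 0 of 10, against 2.88% of all genes, and the WT and KO values overlapped for all 10, while 7.84% of all genes had groups without overlap. The log2 fold change was below 0 for 8 members and above 0 for 2, between -0.29 and 0.07, with a median of -0.11 beside -0.03 over all genes tested. The limma SE was 0.12 to 0.30, so the widest 95% confidence interval reached from -0.95 to 0.43. In these whole punches, fewer cells of a type and less RNA per cell cannot be told apart. Nothing in the labels or methods ties the replicate numbers to litters or days, and each library came from a mouse of its own.

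**Figure D1:**
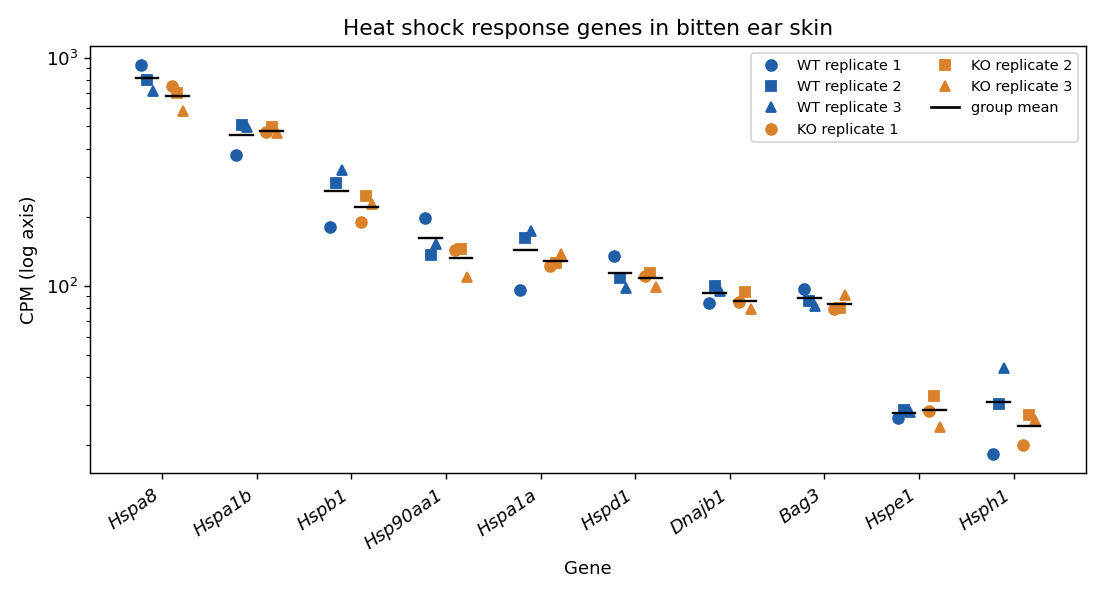
CPM (log axis) of the 10 heat shock response genes in each library, ordered by mean level; blue symbols are the 3 WT libraries, orange symbols the 3 KO libraries, the symbol shape gives the replicate number and the black bars are group means. WT and KO symbols overlap for every gene, and the WT symbols of Hsph1, Hspa1a and Hspb1 are spread more widely than the KO symbols.

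The first group examined was the inducible HSP70 pair, cytosolic chaperones that bind exposed hydrophobic stretches of unfolded proteins. Hspa1b (chromosome 17, 34956429 to 34959238, minus strand) was at 374, 508 and 495 CPM in replicates 1, 2 and 3 of WT and at 475, 496 and 466 CPM in the KO replicates. WT replicate 1 was the lowest library and the 3 KO values lay within the WT range (log2 fold change 0.07, SE 0.13, 95% interval -0.23 to 0.38). Hspa1a (chromosome 17, 34969359 to 34972156, minus strand) was at 95.7, 163 and 174 CPM for WT and 122.7, 126 and 138 CPM for KO. Again WT replicate 1 was lowest, and every KO value fell between WT replicates 1 and 2 (log2 fold change -0.11, SE 0.22, interval -0.61 to 0.39). The spread within WT exceeded that within KO for both, with an SD of 42.1 against 7.91 CPM for Hspa1a and 73.9 against 15.2 CPM for Hspa1b.

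Single values of the pair are uncertain, because a read that fits both genes was divided between them. Of the 75-base windows of the Hspa1a transcript (GENCODE M21), 52.7% also occur in Hspa1b, and 55.8% of those of Hspa1b occur in Hspa1a. Their sum does not depend on that division, but it can depend on reads shared with other genes. Gm20481 holds 14.6% of the windows of Hspa1a and 7.55% of those of Hspa1b. Gm10501 and Hspa1l each hold 5.88% and 4.58%. The sum was 470, 671 and 669 CPM for WT and 597, 622 and 604 CPM for KO. Its mean was 603 ± 115 and 608 ± 12.7 CPM (SD, n = 3 each), and the groups overlapped. Hspa1b took 74.0% to 79.7% of the sum in the 6 libraries.

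Hspa8 (chromosome 9, 40801276 to 40805202, plus strand) encodes the constitutive HSP70 that serves folding, clathrin uncoating and chaperone-mediated autophagy. WT replicates 1, 2 and 3 held 926, 802 and 714 CPM of it, and the KO replicates 749, 701 and 587 CPM. The lowest WT library lay below the highest KO library, and both groups were spread by a similar factor from lowest to highest. The log2 fold change was -0.26 (SE 0.14, interval -0.58 to 0.06). Without WT replicate 3 it was -0.35, below an unadjusted p of 0.05 in limma but with an adjusted p of 0.966. Hspa8 has many processed copies, and 68.6% of its 75-base windows occur in transcripts of 11 other genes, none of them in the deposited table. The ratio of the inducible pair to Hspa8, each in CPM, was 0.508, 0.836 and 0.936 in WT and 0.798, 0.887 and 1.03 in KO. WT replicate 1, lowest for the inducible pair and highest for Hspa8, had the lowest ratio, and the groups overlapped.

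The co-chaperones of HSP70 were taken next. Dnajb1, a J-domain protein (HSP40) that delivers substrates and stimulates the HSP70 ATPase (chromosome 8, 83608175 to 83612653, plus strand), was at 84.5, 100 and 94.6 CPM for WT and 85.4, 94.2 and 79.0 CPM for KO. The groups were interleaved (log2 fold change -0.11, SE 0.12, interval -0.38 to 0.16, and -0.18 to -0.05 with 1 library left out). Hsph1 encodes HSP105, which releases ADP from HSP70 and helps to dissolve aggregates (chromosome 5, 149616845 to 149636336, minus strand). It was at 18.4, 30.3 and 43.9 CPM for WT and 20.2, 27.2 and 25.9 CPM for KO, with all KO values inside the WT range. Hsph1 varied most among the members, 2.38-fold from the lowest to the highest WT library, and its change was the least certain (log2 fold change -0.26, SE 0.30, interval -0.95 to 0.43). Counting error at its lowest value, 76 reads, is 11.5%, against a coefficient of variation of 41.3% in WT. Bag3 couples HSP70 to small heat shock proteins and to autophagy (chromosome 7, 128523583 to 128546979, plus strand). With 97.1, 86.3 and 81.9 CPM for WT and 78.9, 80.1 and 91.4 CPM for KO its log2 fold change was -0.08 (SE 0.12, interval -0.35 to 0.19), and between -0.15 and -0.01 with 1 library left out.

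Hsp90aa1 encodes the stress-inducible HSP90 alpha, which matures kinases and steroid receptors (chromosome 12, 110691036 to 110696395, minus strand). Levels of 198, 137 and 152 CPM were found in WT and of 143, 145 and 110 CPM for KO. WT replicate 1 was the highest and KO replicate 3 the lowest library, with WT replicate 2 below 2 of the KO libraries. The log2 fold change, -0.29, was the lowest of the 10 but not distinguishable from 0 (SE 0.17, interval -0.68 to 0.11), and leaving out WT replicate 1 gave -0.13, leaving out KO replicate 3 -0.15. Hspb1 encodes the small heat shock protein HSP25, an ATP-independent holdase that also binds actin (chromosome 5, 135887919 to 135889563, plus strand). It was at 181, 282 and 323 CPM for WT and 190, 249 and 229 CPM for KO, all KO values again lying within the WT range (log2 fold change -0.20, SE 0.22, interval -0.70 to 0.30).

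The mitochondrial chaperonin consists of HSP60 (Hspd1), a barrel in which proteins fold, and its lid HSP10 (Hspe1). Hspd1 (chromosome 1, 55077833 to 55088243, minus strand) was at 136, 109 and 97.6 CPM for WT and 111, 114 and 99.01 CPM for KO (log2 fold change -0.07, SE 0.14, interval -0.39 to 0.26). Hspe1 (chromosome 1, 55088148 to 55091317, plus strand) was at 26.4, 28.7 and 28.03 CPM for WT and 28.4, 33.1 and 24.1 CPM for KO (log2 fold change 0.03, SE 0.16, interval -0.33 to 0.39). Neither gene separated the genotypes. Although they share a promoter region, the ratio of Hspd1 to Hspe1 in CPM was not constant, at 5.14 in WT replicate 1 and 3.44 to 4.11 in the other 5 libraries. The sources used here do not say whether strand was counted, so reads in the 96 bases common to both cannot be assigned.

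**Figure D2:**
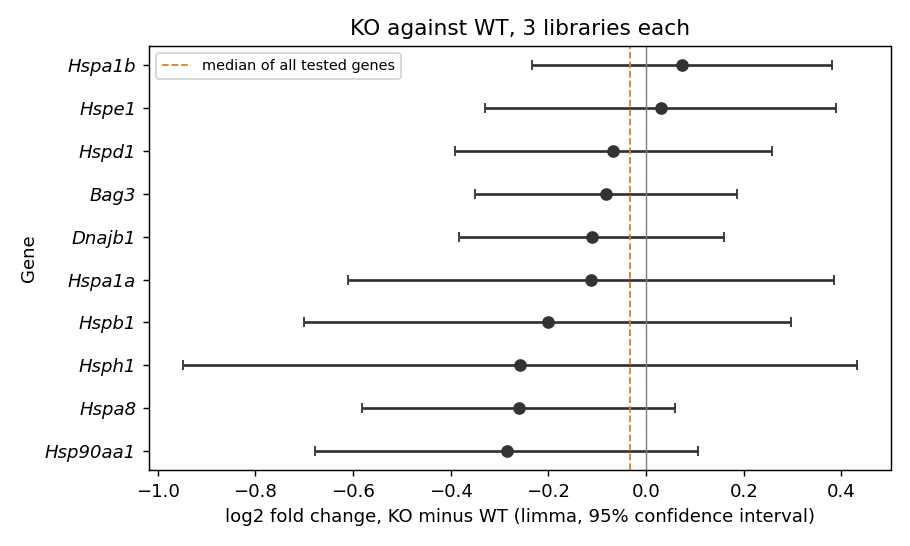
Log2 fold change of KO minus WT for each heat shock response gene from limma on log2(CPM + 0.5), with its 95% confidence interval as a horizontal bar; the solid line is 0 and the dashed line the median of all tested genes. Every interval includes 0, from the narrowest (Bag3) to the widest (Hsph1).

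Levels of different genes were ranked per kilobase of transcript (GENCODE M21, the longest principal coding transcript). The ratios, shares and sums of genes given elsewhere are in CPM and are not corrected for length. Hspa8 was highest, at 312 ± 47.2 CPM per kb (SD, n = 6), and Hspb1 followed at 268 ± 60.4 CPM per kb. Other genes, with 1 exception not in the deposited table, share 57.7% of the 75-base windows of Hspb1, 53.1% of those of Hsp90aa1, 33.7% of Hspd1 and 29.1% of Hspe1, so these levels are uncertain as well, while Hsph1, Dnajb1 and Bag3 share 0. The exception is Hspd1, with 5.43% of the windows of Hspe1. Hspa8 and Hspb1 were not separated, Hspa8 being higher in 4 of 6 libraries. Hspa1b came next at 167 ± 17.5 CPM per kb, below Hspb1 in 6 of 6 libraries. Hspa1a (46.0), Hspd1 (45.8), Hsp90aa1 (45.0), Hspe1 (36.3), Bag3 (33.5) and Dnajb1 (29.9 CPM per kb) then formed a group in which the ranges of each pair of neighbours overlapped. Hsph1 was lowest at 7.27 ± 2.39 CPM per kb, and all 6 of its values lay below those of Dnajb1. The inducible Hspa1b was therefore among the most abundant transcripts per length of the 10 in both genotypes, with 164 ± 26.4 in WT and 171 ± 5.44 CPM per kb in KO (SD, n = 3 each).

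The members did not move as 1 block between libraries. Over the 6 libraries 26 of the 45 pairs of members had a Pearson correlation above 0 and 19 below 0. In 44 of the 45 pairs the sign was the same after median-of-ratios rescaling. Hsph1 and Hspb1 were most alike (r = 0.98), and both resembled Hspa1a (r = 0.91 and 0.92). Hspa8, Hsp90aa1 and Hspd1 formed another set (r = 0.79 to 0.89), and the most opposed pair was Hspa1a and Hspd1 (r = -0.86). With 6 libraries that share a scaling to a fixed total, these coefficients are a description only.

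WT replicate 1 stood apart in this pattern. There Hsph1, Hspa1a, Hspb1 and Hspa1b were at their lowest, by -0.52, -0.48, -0.39 and -0.32 on the log2(CPM + 0.5) scale from their means over the 6 libraries, while Hsp90aa1, Hspa8, Hspd1 and Bag3 were at their highest (0.45, 0.32, 0.30 and 0.18). WT replicate 3 was the reverse for Hsph1 (0.71), Hspb1 (0.45), Hspa1a (0.37) and Hspd1 (-0.18). WT replicate 1 held the highest sum of neutrophil markers and the lowest of hair follicle markers, and WT replicate 3 the lowest and the highest of these, as given above. Hair follicle markers were nearly as low in WT replicate 2 (9.56 against 8.71 CPM in WT replicate 1). There, however, Hspa1a, Hspb1, Hsph1 and Hspa1b were above their means, by 0.28, 0.25, 0.19 and 0.12. Red blood cell markers (5 of 5 tested, none at 0) also set WT replicate 3 apart, with a summed level of 7512 CPM against 1060 and 264 CPM in WT replicates 1 and 2 and 93.1, 647 and 1675 CPM in the KO replicates. The part of these markers in the levels was not tested. Without WT replicate 1, 3 members were at an unadjusted p below 0.05 in limma, Hspa1a with a log2 fold change of -0.38, Hspb1 with -0.45 and Hsph1 with -0.58, and the adjusted p was 0.956 for each. In that fit 576 of 14306 genes were below this threshold, 61.5% of them lower, against 412 with all libraries. Without WT replicate 3 the changes of Hsph1 and Hspa1a were 0.03 and 0.05. The values of these genes thus depended on which WT libraries were used.

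**Figure D3:**
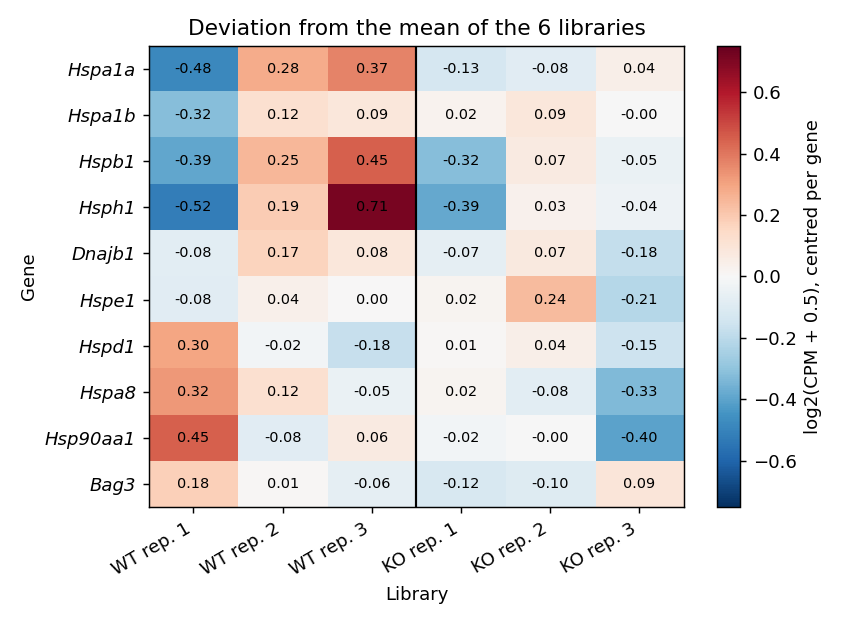
Deviation of log2(CPM + 0.5) from the mean of the 6 libraries for each heat shock response gene (rows) in each library (columns), with the value written in each cell and the vertical line parting WT from KO. WT replicate 1 is low for Hspa1a, Hspa1b, Hspb1 and Hsph1 and high for Hspd1, Hspa8, Hsp90aa1 and Bag3.

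Taken as a sum, which Hspa8 dominated with 31.7% to 43.3%, the 10 genes made up 0.214%, 0.225% and 0.220% of the reads in WT and 0.2004%, 0.207% and 0.185% in KO. The summed levels did not overlap, at 2196 ± 55.4 CPM for WT and 1973 ± 112 CPM for KO (SD, n = 3 each), also after median-of-ratios rescaling (2163 ± 25.7 and 1983 ± 95.03 CPM). The mean of the centred log2 values, in which each gene counts alike, did overlap (0.06 ± 0.11 in WT and -0.06 ± 0.08 in KO). No test was made on sums, since the 10 genes were chosen with earlier results known. Groups without overlap are not rare with 3 libraries each, being found for 7.84% of all genes tested.

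By the fixed rule, the genes most like the mean of the members over the 6 libraries were Msi2, an RNA-binding protein (r = 0.99), Lipe, hormone-sensitive lipase of fat cells (0.99), Sepsecs, a selenocysteine synthase (0.99), Fcho2, an endocytosis factor (0.98), and Naxe, a repair enzyme for damaged NADH (0.98), out of 9840 genes averaging 10 CPM or more. All 5 had lower mean log2 levels in KO, by -0.47 for Lipe and by -0.24 to -0.09 for the others, and none was called (adjusted p = 0.998 each in limma). Their direction largely follows from the choice, since the members' mean was itself lower in KO. Whether such coefficients exceed what 9840 genes and 6 libraries give by chance was not tested. The adipocyte markers that were tested, 9 of 9, had a summed level of 571, 836 and 852 CPM for WT and of 348, 852 and 407 CPM for KO, and their part in the members' levels was not tested.

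To see whether the rest of the chaperone network differed, 79 further genes in 9 lists were examined, of which 75 were tested. None passed at an adjusted p below 0.05 in limma, and 4 of 75 had an unadjusted p below 0.05, all lower in KO, beside 2.88% of all genes tested, of which 63.1% were lower. The log2 fold change was below 0 for 53 and above 0 for 22, with a median of -0.06 beside -0.03 over all genes tested. Among regulators, Hsf1, the master factor of the response, was at 18.6, 17.3 and 17.1 CPM for WT and 15.8, 19.6 and 16.5 CPM for KO. The groups overlapped (log2 fold change -0.04, SE 0.16, interval -0.41 to 0.33), and its activity is set after translation and is not seen here. Hsf2, a related factor, had a log2 fold change of -0.11 (SE 0.22) and Hsbp1, a small HSF1-binding protein, one of -0.22 (SE 0.16), while Hsf4 and Hsf5 were not tested.

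Other members of the HSP70 family had a median of -0.18 over 8 genes. Hspa1l, the testis-type HSP70 that lies beside Hspa1a, was the gene of these lists with the smallest p. It was at 6.98, 7.23 and 6.68 CPM for WT and 2.46, 3.47 and 3.94 CPM for KO, so that the 3 KO libraries lay below the 3 WT libraries (log2 fold change -0.999, SE 0.26, limma adjusted p = 0.998). Groups without overlap were found for 7 of the 75 tested list genes and for 7.84% of all genes. The KO values of Hspa1l rest on few reads, as 1 read stood for 0.152, 0.280 and 0.294 CPM in KO replicates 1, 2 and 3. The adjusted p was between 0.738 and 1.0 over its 15 alternatives. Hspa1l also shares reads with the pair, 5.88% of the 75-base windows of Hspa1a occurring in it, so its value is uncertain. The small heat shock proteins, in part typical of muscle, had a median of -0.29 over 6 tested genes, with Hspb6 at -0.39 (SE 0.19) and Hspb8, the partner of Bag3, at -0.38 (SE 0.20). Beside them, skeletal muscle markers (14 of 14 tested, none at 0) summed to 6182, 7164 and 7993 CPM for WT and 3827, 4601 and 7665 CPM for KO, and their part was not tested.

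HSP90 and its co-chaperones had a median of -0.09 over 11 genes. In this list Fkbp5, a co-chaperone of steroid receptors and itself a glucocorticoid target, was below an unadjusted p of 0.05 in limma (log2 fold change -0.55, SE 0.22, adjusted p = 0.998), at 48.1 ± 5.09 CPM for WT and 33.6 ± 10.6 CPM for KO. Among 14 chaperones of the endoplasmic reticulum (median -0.06), Creld2 (-0.45, SE 0.19) and Dnajb9 (-0.43, SE 0.18), both targets of the unfolded protein response, were below an unadjusted p of 0.05 in limma with an adjusted p of 0.998. The remaining lists had 0 genes at an unadjusted limma p below 0.05. Their medians were -0.04 for J-domain proteins, where Dnajb5 was at -0.20 (SE 0.20) and Dnaja1 at -0.12 (SE 0.13), and 0.03 for BAG and other HSP70 co-chaperones, where Bag2 was at -0.45 (SE 0.32) and the ubiquitin ligase Stub1 at 0.14 (SE 0.15). For mitochondrial chaperones and proteases the median was -0.02, with Grpel2 at -0.24 (SE 0.12) and the disaggregase Clpb at -0.26 (SE 0.24), and for the cytosolic chaperonin TRiC it was -0.04, with Cct5 at -0.16 (SE 0.11) and Cct4 at -0.09 (SE 0.09). Immediate early genes, which respond to many of the same insults, had 6 of 14 genes lower in KO at an unadjusted limma p below 0.05 and 0 of 14 after adjustment, with a median of -0.45, where 2.88% of all genes had such a p and the median of all was -0.03.

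**Figure D4:**
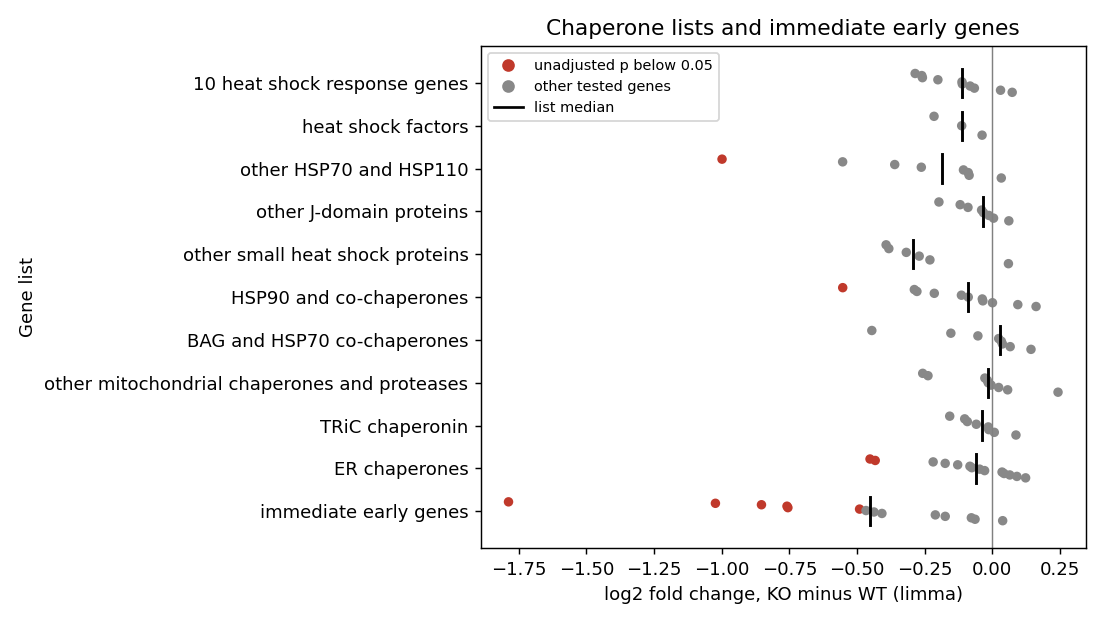
Log2 fold change of KO minus WT from limma for each tested gene (points) in the 10 heat shock response genes, the 9 further chaperone lists and the immediate early genes; black bars are list medians and red points have an unadjusted p below 0.05. The heat shock response genes lie between -0.29 and 0.07 and none of them is red.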

How the data were processed

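Bitten ear skin of 3 WT and 3 KO mice was compared. The authors aligned trimmed reads to mm10 with STAR 2.7.3a and assigned them to Ensembl transcripts in Partek Flow by expectation maximization, per the labels and the study’s methods. The deposited values are gene-level CPM, each count divided by its library total, plus an offset of 0.0001, which was subtracted here. The low values gave the CPM of 1 read. Of values under 20 reads, 91.8% to 92.8% were within 0.1 of a whole read, so no count model was used and counting errors are estimates. Values were tested as log2(CPM + 0.5) with limma 3.58.1 in R 4.3.3 (lmFit, eBayes with a trend, two-sided, no covariate) for 14306 genes averaging 1 CPM or more, with Benjamini-Hochberg adjustment over all of them. The fit was also run on simulated data in which all genes had the same spread. The genes of these libraries do not, so that run is no check for the more variable ones. Groups came from sample titles. The members and lists were chosen with earlier results of these data known. Named were Adipoq, the members, Hsf1, of each chaperone list the genes at an unadjusted p below 0.05 or else the 2 of smallest p, and the 5 genes most like the members' mean. Gene ends are the listed ends less 1, which match the RefSeq window starts of minus-strand members.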

Additional observations from a re-analysis of the deposited data

How the results depend on the processing

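No member passed at an adjusted p below 0.05 under any of 15 alternatives (other pseudocounts, filters, scalings and variance models, a replicate block, and each library left out), the smallest adjusted p being 0.956. Of 150 values of single members, 144 kept their direction and 6 changed it, each when 1 library was left out. With 1 library left out, the log2 fold change ranged from -0.0677 to 0.15 for Hspa1b, -0.0809 to 0.14 for Hspe1, -0.17 to 0.0652 for Hspd1, -0.38 to 0.0459 for Hspa1a, -0.58 to 0.0343 for Hsph1, -0.13 to 0.0226 for Hsf1 and -0.33 to 0.10 for Hsf2. Hsf1 was also at 0.0219 with quantile normalization. The cause was not tested. The median of the members stayed between -0.15 and -0.06. The members at an unadjusted p below 0.05 numbered 0 to 3 with 1 library left out, and 1 with the replicate block (Hspa8, adjusted p = 0.976 in limma), where all genes at this threshold numbered 311 to 710 and 591, against 412 with all libraries and no block. For the chaperone lists this number was 2, in place of 4, with median-of-ratios rescaling, quantile normalization or no mean-variance trend, and 1 (without KO replicate 1) to 6 (without KO replicate 2) with 1 library left out. With the block, Hspb6 and Hspb8 came below this threshold and Fkbp5 and Creld2 left it. The values of several list genes moved by over 1.5 times with 1 library left out, as Bag2 to -0.14 without WT replicate 3, Dnajb5 to -0.04 without KO replicate 1, Clpb to -0.10 without KO replicate 2, and Dnaja1 to -0.03 and Fkbp5 to -0.35 without KO replicate 3. The value of Adipoq moved with the pseudocount, being -4.46 with 2 and -7.94 with 0.1. It ranged from -6.54 to -5.94 with 1 library left out, and its adjusted p was 0.0681 without WT replicate 2. Same-numbered libraries did not all deviate together (r = 0.38, -0.31 and -0.22), which cannot exclude a shared litter or day. The block changed no call at an adjusted p below 0.05 among the named genes. Rescaling moved the share of lower genes among those at an unadjusted p below 0.05 from 63.1% to 50.6%, and quantile normalization to 43.5%. With 3 libraries a group, changes inside the intervals given were not excluded. An interval without 0 did not bring a call either, as for Hspa1l (-1.61 to -0.39).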
